A study of Homo sapiens with 6 samples.

Results

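Gastrointestinal lineage transcription factors are DNA-binding proteins that set and hold the identity of gut epithelium. The report covers 8 of them, *CDX1*, *CDX2*, *HNF4A*, *GATA4*, *GATA6*, *KLF5*, *SOX9* and *FOXA2*, which were chosen by gene symbol from the 60480 genes of the count table, and all 8 were found there. RNA-seq of poly(A) RNA was done on OE-19 cells, a human line from an adenocarcinoma of the esophagogastric junction (AEG), with 3 libraries labelled shControl and 3 libraries labelled shIGF2BP3. The shControl libraries, named Puro in the counts, are called control here, and the labels and methods do not describe this control further. The shIGF2BP3 libraries carry a knockdown of IGF2BP3, an RNA-binding protein that reads m6A marks, and are called IGF2BP3 KD. All libraries come from this 1 line, and neither the labels nor the methods say how many hairpins were used or whether the replicates are separate cultures, so p-values here measure only the spread between these libraries.

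In the embryo, the GATA factors and the forkhead factor FOXA2 act early in endoderm, FOXA2 as a pioneer factor that opens closed chromatin. HNF4A is a nuclear receptor of gut and liver epithelium, and the caudal homeobox factors CDX1 and CDX2 give epithelium an intestinal character. KLF5 and SOX9 are active in the proliferating crypt, and SOX9 is a target of WNT signalling. Adenocarcinomas of the esophagogastric junction are columnar tumors in which many of these factors are active together.

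Counts per library lay between 53424071 and 69989087, and *IGF2BP3* itself fell from 108 ± 2.92 to 13.3 ± 0.996 CPM (SD, n = 3). Expression is given as CPM, a gene's counts relative to the library total on a fixed scale, with edgeR's TMM factors. A gene is called lower or higher where its adjusted p, from the quasi-likelihood test of edgeR over 19778 genes, was under 0.05. This rule called 20.4% of the tested genes, 10.6% as lower and 9.87% as higher in IGF2BP3 KD. Exons of *IGF2BP3* share 1521 bases with those of *MALSU1* on the opposite strand, which was also called lower, with a log2 fold change of -0.67. The defining genes of the labelled cell type were present: *EPCAM*, an epithelial adhesion gene, lay between 462 and 541 CPM, and *ERBB2*, an oncogene amplified in OE-19, between 12478 and 14653 CPM. Of 5 epithelial genes, *EPCAM* was called higher (log2 fold change 0.15), *KRT8* (-0.06) and *KRT18* (-0.07) lower, and *CDH1* and *KRT19* neither. *ERBB2* was called higher, by 0.13 on the log2 scale. The squamous markers *KRT5*, *KRT14*, *TP63* and *DSG3* summed to at most 1.08 CPM in any library, a longer list of 10 squamous keratinocyte genes summed to between 6.95 and 12.1 CPM, and *CD3E*, a T cell gene, had no count.

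Of the 8 lineage factors, 7 passed the filter on low counts, and 1 of these, *CDX2*, was called higher in IGF2BP3 KD cells. None was called lower, with 0 also by DESeq2. Over all tested genes, 9.87% were called higher and 10.6% lower. At an unadjusted p under 0.05, 1 lineage factor was lower, against 15.3% of the tested genes. *CDX2* rose 1.41-fold, with a 95% confidence interval from 1.23 to 1.62. The other 6 tested factors were not called, and their log2 fold changes lay between -0.12 for *FOXA2* and 0.13 for *GATA6*. The intervals of these 6 reached at most from -0.27 to 0.33 on the log2 scale. *CDX1* had no count in any library.

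**Figure D1:**
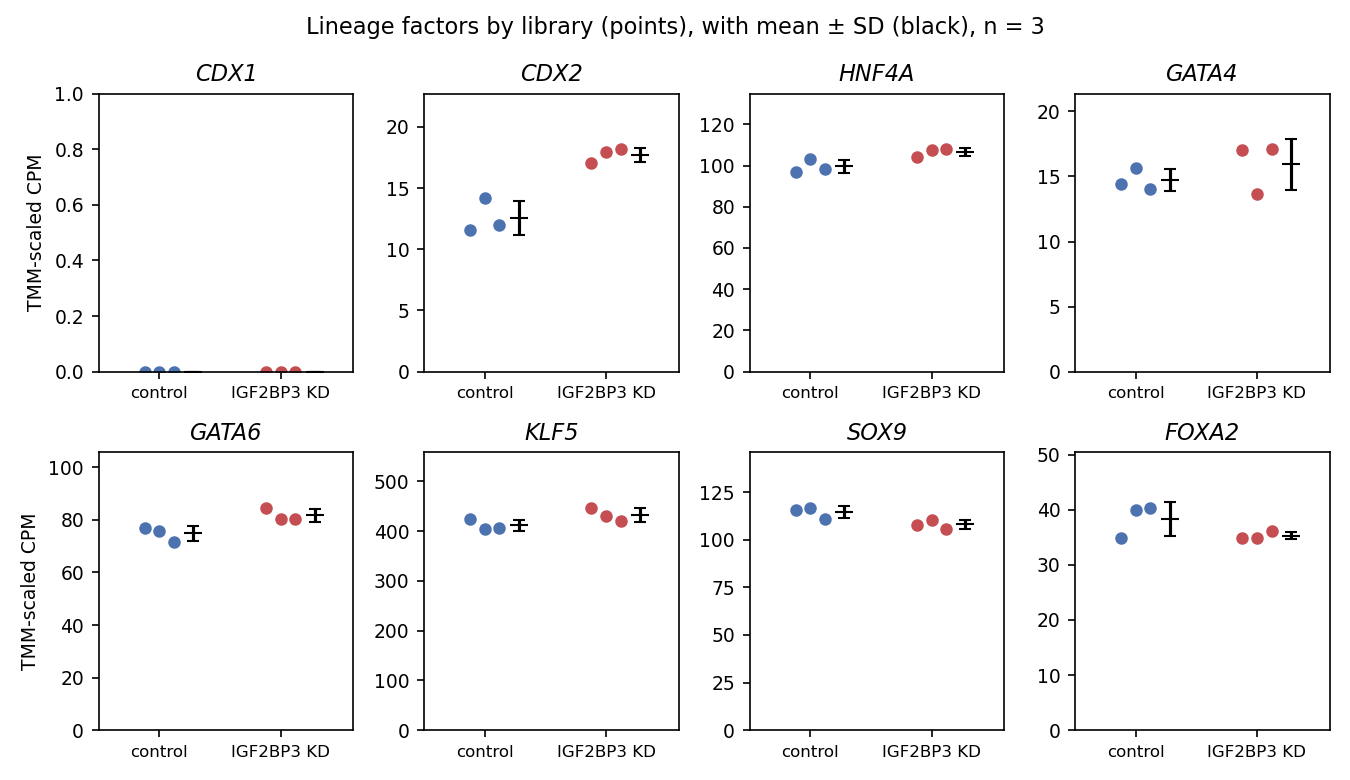
TMM-scaled CPM (vertical axes, each from 0) of the 8 lineage factors in the 3 control (blue) and 3 IGF2BP3 KD (red) libraries, with the mean and SD in black. The *CDX2* points of IGF2BP3 KD, from 17.1 to 18.2 CPM, all lie above the control points, from 11.6 to 14.2 CPM, while *CDX1* is at 0 throughout.

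*CDX2* (ENSG00000165556) occupies bases 27960918 to 27969315 of chromosome 13 (hg38, minus strand), and its exons overlap no other gene. Control replicates 1, 2 and 3 held 793, 986 and 702 *CDX2* counts, and IGF2BP3 KD replicates 1, 2 and 3 held 922, 1114 and 1146. Scaled for depth, this is 11.6, 14.2 and 11.99 CPM in control cells and 17.1, 17.9 and 18.2 CPM in IGF2BP3 KD cells. Control replicate 2 was the highest control and still below every IGF2BP3 KD library, so the groups did not overlap. On the log2 scale the change was 0.50 with a standard error of 0.09, and the Benjamini-Hochberg adjusted p by the quasi-likelihood test of edgeR was 0.00247. Leaving out any 1 library gave 0.44 to 0.59, with edgeR adjusted p-values of no more than 0.0154. In bulk RNA, more cells that express *CDX2* and more *CDX2* RNA per cell cannot be told apart.

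Since *CDX2* is the only lineage factor that was called, its start region is shown where it holds short sequences that the lineage factors are known to bind. The window of 250 bases before to 50 after the start (RefSeq, GRCh38.p14) was searched on both strands for 7 motifs, which are AGATAA for GATA factors, TGTTTAC for FOXA factors, CAAAGTCC for HNF4 factors, TTTATNG for CDX factors, ACAATGG for SOX factors, GGGCGGG for KLF factors and the HNF1 motif. It held a CDX, a GATA and a FOXA match, none of which overlaps another. They begin at -181, -119 and -13 from the start, lie on chromosome 13, and are shown 5′ to 3′ on the strand of *CDX2* with the matched bases in capitals, each of them the reverse complement of the motif.
CDX match, chr13:27969479-27969507: gaagctcttaaCAATAAAggtttgaatat
GATA match, chr13:27969418-27969445: ctccctcccctTTATCTtttaaaatgca
FOXA match, chr13:27969311-27969339: aatagagtcttGTAAACActcgttaatca
Among 27305 promoters of the same length, 10.1% hold the CDX motif, 10.5% the GATA motif and 3.41% the FOXA motif, so a match describes the letters and not a bound site. Of the other lineage factors, the start regions of *HNF4A*, *GATA6* and *KLF5* could be searched. That of *HNF4A* held a GATA match at -26, shown here since GATA factors and HNF4A work together in gut epithelium, on the plus strand of chromosome 20.
GATA match, chr20:44355662-44355689: aagaatcaataAGATAAccgggcggtgg
A second *HNF4A* start held a KLF match, the starts of *KLF5* held a CDX, a SOX and a KLF match, and that of *GATA6* held none of the 7 motifs. Of all promoters searched, 32.9% hold the KLF, 3.15% the SOX, 1.21% the HNF4 and 0.293% the HNF1 motif. *CDX1*, *GATA4*, *SOX9* and *FOXA2* were not searched.

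*CDX1* (ENSG00000113722, chromosome 5, 150166778 to 150184558), the paralog of *CDX2* that is also active in intestinal crypts, had 0 counts in all 6 libraries. Taking 3 counts as the limit that a count of 0 allows, its level was at most 0.0431 to 0.0556 CPM, depending on the library, a limit that covers counting error only. Per kb of exon this limit was at most 0.0289 CPM in control cells, and in each of the 6 libraries *CDX2* was at least 118-fold higher than that library's limit on the same scale. *CDX1* was therefore not tested, and a ratio of the paralogs was not computed.

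*HNF4A* (ENSG00000101076, chromosome 20, 44355699 to 44432845) had 97.0, 103 and 98.4 CPM in control replicates and 104, 107 and 108 CPM in IGF2BP3 KD replicates. The highest control library lay just below the lowest IGF2BP3 KD library. The log2 fold change was 0.10, with a 95% confidence interval from 0.01 to 0.18, and it did not pass the test (adjusted p = 0.107, edgeR's quasi-likelihood test). *HNF4A* shares 84 exonic bases with the microRNA gene *MIR3646*, which had at most 5 counts.

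*FOXA2* (ENSG00000125798, chromosome 20, 22580998 to 22585455) had 34.8, 39.9 and 40.4 CPM in control replicates and 34.9, 34.9 and 36.1 CPM in IGF2BP3 KD replicates. Control replicate 1 lay below all IGF2BP3 KD libraries and the other two controls above them, so the groups overlap. The log2 fold change was -0.12 (interval -0.27 to 0.02, adjusted p = 0.252, edgeR's quasi-likelihood test), and -0.19 without control replicate 1 (adjusted p = 0.051). Neither value passed the test.

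*GATA6* (ENSG00000141448, chromosome 18, 22169589 to 22202528) had 76.9, 75.9 and 71.7 CPM in control replicates and 84.7, 80.4 and 80.2 CPM in IGF2BP3 KD replicates. The groups did not overlap, but the log2 fold change of 0.13 (interval 0.03 to 0.23) did not pass the test (adjusted p = 0.0716, edgeR's quasi-likelihood test). Exons of *GATA6* overlap 2 genes on the opposite strand, *GATA6-AS1* by 94 bases and ENSG00000266283 by 321 bases. The library kit keeps strand, but the strand setting of the counting is not stated, so reads from these bases cannot be assigned with certainty. *GATA6-AS1* had 8.25 ± 0.409 CPM in control and 10.1 ± 0.97 CPM in IGF2BP3 KD cells (SD, n = 3), a log2 fold change of 0.29 that was not called (adjusted p = 0.0864, edgeR's quasi-likelihood test). Of 4 antisense and neighbouring RNAs of the lineage factors 3 were tested. None was called in either direction (0 also by DESeq2), against 20.4% of all tested genes. At an unadjusted p under 0.05 it was 1, against 30.8%.

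*GATA4* (ENSG00000136574, chromosome 8, 11676959 to 11760002) had 14.5, 15.7 and 14.1 CPM in control replicates and 17.0, 13.7 and 17.1 CPM in IGF2BP3 KD replicates. IGF2BP3 KD replicate 2 was the lowest of the 6 libraries and the other two the highest, so the groups overlap. The log2 fold change was 0.11 (interval -0.10 to 0.33, adjusted p = 0.506, edgeR's quasi-likelihood test), and leaving out any 1 library gave 0.06 to 0.21, the highest without IGF2BP3 KD replicate 2 and the lowest without replicate 1 or 3 of that group.

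*KLF5* (ENSG00000102554, chromosome 13, 73054976 to 73077541) was the most abundant lineage factor, with 424, 404 and 406 CPM in control replicates and 447, 431 and 419 CPM in IGF2BP3 KD replicates. The groups overlap, since IGF2BP3 KD replicate 3 lay below control replicate 1. The log2 fold change was 0.07 (interval 0.0024 to 0.14, adjusted p = 0.147, edgeR's quasi-likelihood test). KLF5 is a zinc finger factor that drives growth of crypt cells.

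*SOX9* (ENSG00000125398, chromosome 17, 72121020 to 72126416) had 116, 117 and 111 CPM in control replicates and 108, 111 and 106 CPM in IGF2BP3 KD replicates. All IGF2BP3 KD libraries were below all control libraries, the closest pair being 110.6 and 111.1 CPM. The log2 fold change was -0.08 (interval -0.17 to -0.003, adjusted p = 0.146, edgeR's quasi-likelihood test).

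Among the 7 tested lineage factors, 5 had a log2 fold change above 0 and 2 below 0, with a median of 0.10 against 0.01 over all tested genes. In 4 of them (*CDX2*, *HNF4A*, *GATA6* and *SOX9*) the groups did not overlap, and 35.8% of all tested genes show this. An unadjusted p under 0.05 was found in 5 of the 7, against 30.8% of the tested genes. The change of *CDX2* was exceeded in size by 17.7% of the tested genes, and those of the 6 other factors by 63.5% to 78.7%.

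**Figure D2:**
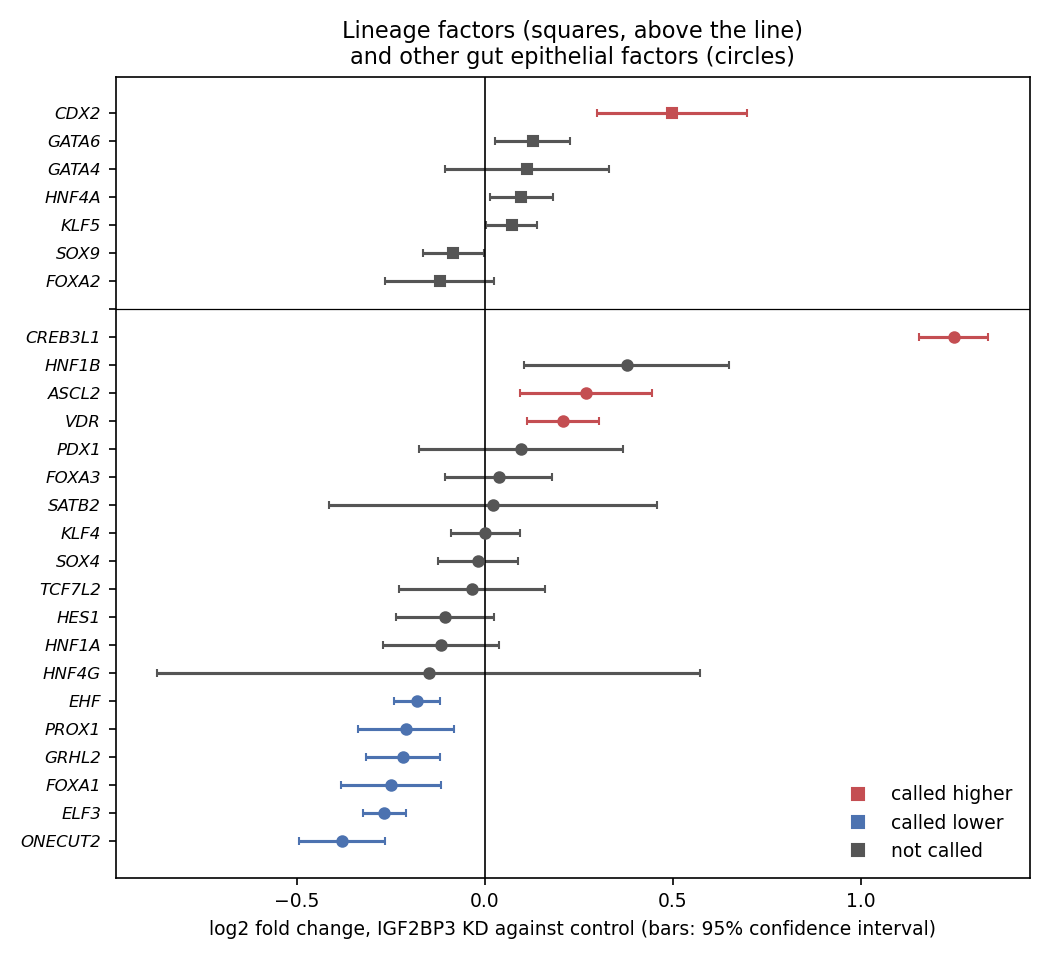
Log2 fold change of IGF2BP3 KD against control (horizontal axis) with its 95% confidence interval for the 7 tested lineage factors (squares) and 19 other transcription factors of gut epithelium (circles). Red and blue mark genes called higher and lower. *CDX2* at 0.50 is the only square in red, and *CREB3L1* at 1.25 lies farthest to the right.

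The lineage factors spanned a wide range of levels. Levels of different genes were compared as CPM per kb of exon, with exons joined over all isoforms of GENCODE v44, which understates genes whose cells use short isoforms only. In control cells *KLF5* had 112 ± 3.0 CPM per kb (SD, n = 3), and 98.5% of the 13990 tested coding genes had less. *SOX9* followed with 29.2 ± 0.783, *GATA6* with 19.7 ± 0.732, *FOXA2* with 14.1 ± 1.14 and *HNF4A* with 9.79 ± 0.318 CPM per kb. The place of *HNF4A* depends on its joined exon length of 10167 bases, against 2719 (*FOXA2*) to 4443 (*GATA4*) for the other tested factors. Without the length, *HNF4A* averaged 99.6 CPM in control cells, above *GATA6* with 74.8 and *FOXA2* with 38.4 CPM. *CDX2* and *GATA4* were the lowest of those detected, near the middle of the coding genes, with 3.57 ± 0.394 and 3.31 ± 0.187 CPM per kb. This pair overlapped in control cells, where *CDX2* lay between 3.29 and 4.02 and *GATA4* between 3.17 and 3.52 CPM per kb. In IGF2BP3 KD cells *CDX2* lay between 4.86 and 5.17 and *GATA4* between 3.07 and 3.85 CPM per kb, with no overlap. At these exon lengths, the order of the other factors was the same in both groups, and no neighbours among them overlapped.

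**Figure D3:**
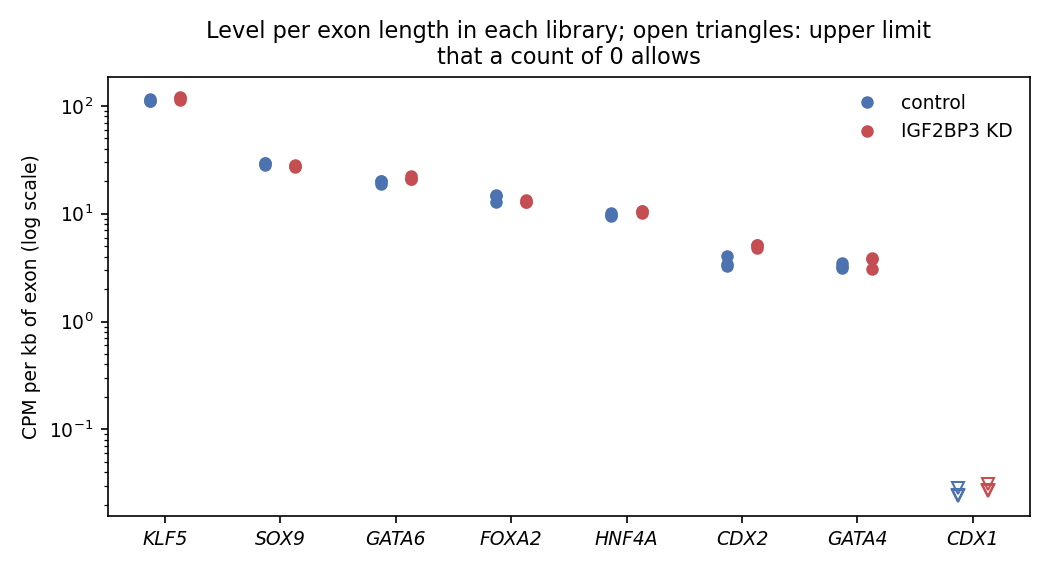
CPM per kb of exon (vertical axis, log scale) of each lineage factor in the 3 control (blue) and 3 IGF2BP3 KD (red) libraries, in order of the control mean. Open triangles give the upper limit for *CDX1*, at most 0.0313 CPM per kb, and *KLF5* stands at the top with 112 CPM per kb in control cells.

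Some lineage factors have a close relative that can act at the same sites, and the log2 ratio of the pair within a library does not depend on depth. The ratio of *GATA6* over *GATA4* was 2.35 ± 0.0681 in control and 2.37 ± 0.17 in IGF2BP3 KD cells (SD, n = 3), a difference of 0.02 (two-sided exact permutation test, p = 0.9). The ratio of *FOXA2* over *FOXA1* was -0.81 ± 0.151 and -0.67 ± 0.0876, a difference of 0.13 (two-sided exact permutation test, p = 0.2). For *HNF4A* over its relative *HNF4G* the ratio was 1.70 ± 0.593 and 1.98 ± 0.777, with p = 0.5 in the same exact permutation test. With 3 against 3 libraries this test cannot give a p below 0.1, and after adjustment over the 3 pairs the values were 0.9, 0.6 and 0.75. The wide spread of the last ratio came with *HNF4G*, which had 18.6, 41.1 and 37.5 CPM in control replicates and 36.2, 36.9 and 14.7 CPM in IGF2BP3 KD replicates. Control replicate 1 and IGF2BP3 KD replicate 3 thus stood apart for *HNF4G*, while *HNF4A* varied little.

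A list of 24 other transcription factors that work beside the lineage factors in gut epithelium held both rises and falls. Of these 19 were tested, of which 6 were lower, 3 were higher and 10 were not called, with a median log2 fold change of -0.03. The shares to set beside this and the following lists are 10.6% lower and 9.87% higher over all tested genes. *ISX*, a homeobox factor of enterocytes, had 0 counts in all libraries. *CREB3L1*, a membrane-bound factor of secretory cells, rose from 60.0, 63.6 and 64.6 CPM in control replicates to 147, 154 and 145 CPM in IGF2BP3 KD replicates. Its log2 fold change of 1.25 had a standard error of 0.04 and an edgeR adjusted p of 1.06e-08. *VDR*, the vitamin D receptor of absorptive epithelium, rose by 0.21 on the log2 scale. *ASCL2*, a WNT-driven factor of crypt stem cells, rose by 0.27, but its call was lost in each fit that left out 1 library except the fit without control replicate 2, with values from 0.20 to 0.30 in the fits that lost it. It was also lost with the replicate block (0.27) and without a filter on low counts (0.26).

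The largest falls among these factors were those of *ONECUT2*, *ELF3* and *FOXA1*. *ONECUT2*, a homeobox factor of the hepatocyte nuclear factor 6 family, had 63.2, 59.7 and 57.6 CPM in control replicates and 47.5, 45.4 and 45.9 CPM in IGF2BP3 KD replicates, a log2 fold change of -0.38. The epithelial ETS factors *ELF3* and *EHF*, the most abundant of the list, fell by 0.27 and 0.18 on the log2 scale. *FOXA1*, the relative of *FOXA2*, fell from 67.1 ± 2.26 to 56.5 ± 4.6 CPM (SD, n = 3), a log2 fold change of -0.25. Its call was lost without control replicate 2, without IGF2BP3 KD replicate 1 and without IGF2BP3 KD replicate 2, with values from -0.24 to -0.21. The neighbour of *CDX2* on chromosome 13, *PDX1*, had 7.38 ± 0.72 and 7.89 ± 0.718 CPM and was not called. *ELF3*, *FOXA1* and *VDR* share exonic bases with other genes, which leaves their counts uncertain there.

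Of 11 factors of foregut and squamous epithelium 8 were tested, 1 was lower and none was higher (edgeR, with 0 also by DESeq2 and 0 at an unadjusted p under 0.05), with a median log2 fold change of -0.14. *GRHL3*, a grainyhead factor of squamous differentiation, fell from 14.1 ± 0.364 to 10.3 ± 0.397 CPM (SD, n = 3). *PITX1*, the most abundant of them, had 17.3 and 16.5 CPM on average and was not called, and *TP63*, the master factor of squamous epithelium, did not exceed 0.307 CPM in any library. *PITX1* shares exonic bases with another gene.

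Genes of intestinal epithelium, among them known targets of CDX2, HNF4A and GATA factors, were higher or not called where they could be tested. Of 25 such genes 18 were tested, 6 were higher and 12 were not called, against 9.87% of all tested genes called higher. None was lower, against 10.6% of all tested genes (edgeR, with 0 also by DESeq2 and 0 at an unadjusted p under 0.05). Their median log2 fold change was 0.27, and 0.23 over the 11 genes that averaged 1 CPM or more, against 0.01 over all tested genes. Of the 18, 14 had a log2 fold change above 0, and the 7 that averaged below 1 CPM were not called. Like the other lists, this list was chosen with earlier results of these data known, so its shares are descriptions. *CDH17*, an intestinal cadherin and textbook CDX2 target, had 583, 565 and 566 CPM in control replicates and 760, 771 and 788 CPM in IGF2BP3 KD replicates. The log2 fold change of 0.44 had a standard error of 0.02 and an edgeR adjusted p of 6.5e-07. *A1CF*, a cofactor of apolipoprotein B RNA editing, rose from 3.87 ± 0.429 to 6.84 ± 0.507 CPM (SD, n = 3), or by 0.82 on the log2 scale.

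The rises of the other 4 were smaller. *AGR2*, a disulfide isomerase of mucus-secreting cells, rose by 0.36 on the log2 scale, *TFF3*, a trefoil peptide of goblet cells, by 0.31, *MYO1A*, a brush border myosin, by 0.23 and *LGALS4*, an intestinal galectin, by 0.14. *VIL1*, the brush border protein villin and a target of CDX2 and HNF4A, had 364 CPM in control and 360 CPM in IGF2BP3 KD cells on average and was not called. The 7 genes that were not tested, among them the enterocyte genes *FABP2* and *APOA4* with 0 counts, did not exceed 0.287 CPM in any library. *A1CF*, *MYO1A* and *VIL1* share exonic bases with other genes.

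Genes of gastric epithelium, to which GATA factors contribute, moved in both directions. Of 15 such genes 10 were tested, 5 were higher, 1 was lower and 4 were not called, with a median log2 fold change of 0.23. The gastric mucin genes *MUC6* and *MUC5AC* rose by 0.75 and 0.59 on the log2 scale, *MUC6* from 12.2 ± 0.631 to 20.6 ± 1.11 CPM (SD, n = 3). *PSCA* rose by 0.29, with its call lost without control replicate 1, without control replicate 3 and without IGF2BP3 KD replicate 3 (values from 0.23 to 0.28). Its exons share bases with those of another gene. *CTSE* and *ANXA10*, the most abundant of the list, each rose by 0.16. *PGC*, which encodes the digestive proenzyme progastricsin, fell by 0.37 on the log2 scale.

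**Figure D4:**
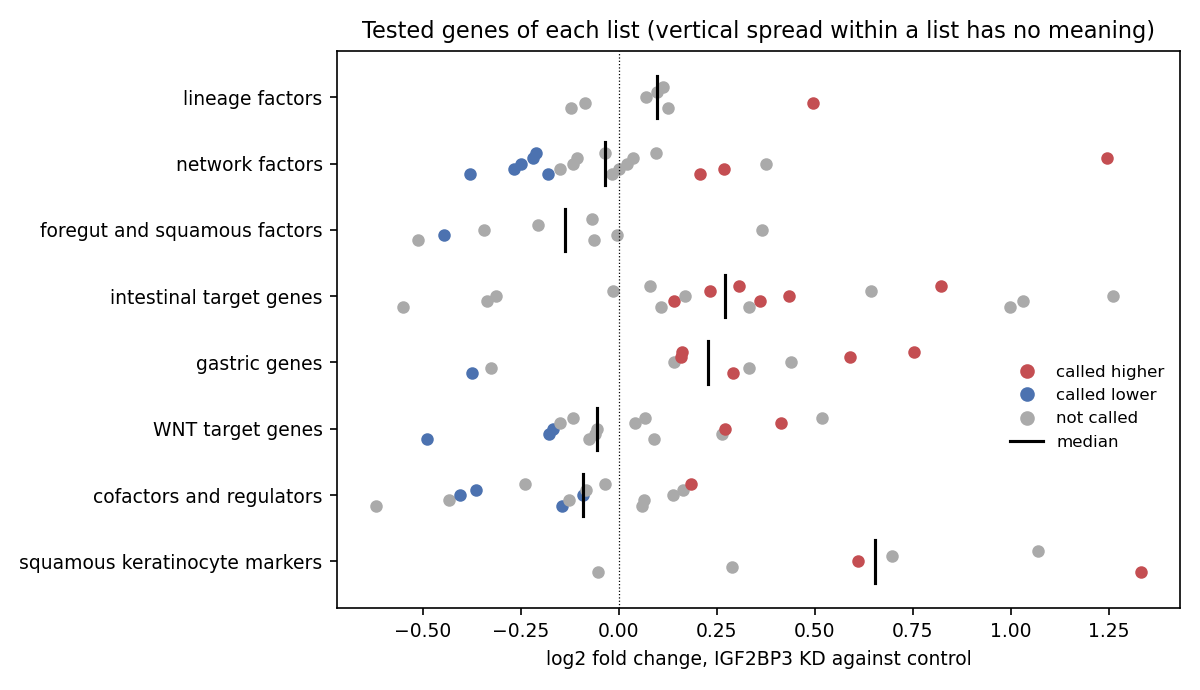
Log2 fold change of IGF2BP3 KD against control (horizontal axis) for the tested genes of each list, 1 point per gene, red and blue for genes called higher and lower, with the median as a black bar. The intestinal and gastric lists have medians of 0.27 and 0.23, and the lineage factors themselves a median of 0.10.

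SOX9 is a WNT target, so other WNT target genes were counted beside it. Of 15 tested, 3 were lower, 2 were higher and 10 were not called, with a median log2 fold change of -0.05. *NOTUM* and *AXIN2*, both feedback inhibitors of WNT signalling, fell by 0.49 and 0.17 on the log2 scale, *NOTUM* from 180 ± 11.6 to 128 ± 3.04 CPM (SD, n = 3). *NKD1*, a further inhibitor, fell by 0.18, and its call was lost without IGF2BP3 KD replicate 1 (-0.15) and without IGF2BP3 KD replicate 3 (-0.17). *TNFRSF19* rose by 0.27 and the WNT effector gene *LEF1* by 0.41, the latter with its call lost without control replicate 2, without control replicate 3 and without IGF2BP3 KD replicate 1 (values from 0.35 to 0.39). *RNF43*, a ubiquitin ligase that removes WNT receptors and the most abundant of the list, was not called at -0.07, and was called without control replicate 1 (-0.10). *NOTUM*, *AXIN2*, *NKD1*, *LEF1* and *RNF43* share exonic bases with other genes.

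Partners and regulators of the lineage factors were tested as a list of 15 genes, of which 4 were lower, 1 was higher and 10 were not called, with a median log2 fold change of -0.09. *PPARGC1A* and *NCOA2*, coactivators of nuclear receptors such as HNF4A, fell by 0.36 and 0.41 on the log2 scale, *NCOA2* from 106 ± 2.67 to 79.9 ± 2.24 CPM (SD, n = 3). The acetyltransferase gene *EP300* fell by 0.15 and the corepressor gene *NCOR1* by 0.09, the latter with its call lost without control replicate 3, without IGF2BP3 KD replicate 2 and without IGF2BP3 KD replicate 3 (values from -0.10 to -0.08). *WWP1*, a ubiquitin ligase known to act on KLF5, rose by 0.18. *YAP1*, the most abundant of the list, had 431 and 420 CPM on average and was not called. *EP300*, *NCOR1*, *WWP1* and *YAP1* share exonic bases with other genes.

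In these libraries, coding genes with the 7-base word ACACATC in the 3′ UTR were called higher in 28.1% of cases, against 11.5% of those without it. Genes with GATTACT were called lower in 35.1% of cases, against 12.6% of those without it. The words were chosen on the same libraries, so these shares are descriptions. Of the 8 lineage factors none holds GATTACT in the 3′ UTR of its canonical transcript, and 1, *GATA6*, holds ACACATC, once. The site of *GATA6* is shown with that of *CREB3L1*, the only called carrier of the word in the other lists that rose, with the word in capitals, both on the plus strand.
*GATA6*, chr18:22201258-22201286: ggccatttggtACACATCtctggaggctg
*CREB3L1*, chr11:46321049-46321077: cacccaaacagACACATCaacgcacccca
The 3′ UTR of *CDX2* has 2197 bases and holds neither word. It holds TGGAC, the DNA letters of the UGGAC motif linked to IGF2BP3 binding, 7 times. The 3′ UTR of *HNF4A* holds TGGAC 4 times, that of *SOX9* 3, that of *CDX1* 2 and that of *GATA4* 1. Those of *GATA6*, *KLF5* and *FOXA2* do not hold it. Over 13916 tested coding genes 61.4% hold TGGAC, 9.54% ACACATC and 7.7% GATTACT. Genes with TGGAC were called lower in 15.6% of cases and higher in 14.0%, against 12.4% and 11.5% of those without it. Of the tested genes of the other lists, 5 hold GATTACT, of which *ONECUT2*, *PPARGC1A* and *EP300* were lower and *TCF7L2* and *WWTR1* were not called. ACACATC is held by 7, of which 1 (*CREB3L1*) was higher, 4 (*PROX1*, *GRHL2*, *NKD1* and *PPARGC1A*) were lower and 2 (*CD44* and *CREBBP*) were not called. The call of *PROX1* held without control replicate 3 but was lost without any of the other 5 libraries (values from -0.23 to -0.19).

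Among tested genes averaging 1 CPM or more, the profiles nearest to that of *CDX2* were those of *CASP5*, an inflammatory caspase, and *NTAN1*, an asparagine amidase. Likeness was the root-mean-square difference of centred log2 CPM over the 6 libraries, which was 0.0389 for *CASP5* and 0.0439 for *NTAN1*, among 14288 genes. *NTAN1* had 10.6, 12.7 and 9.92 CPM in control replicates and 14.8, 16.0 and 16.2 CPM in IGF2BP3 KD replicates. It was picked for likeness over these same libraries, so its high control replicate 2 follows from the choice.

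Markers of other cells were counted last. The sum over 10 squamous keratinocyte genes was 6.95 to 7.72 CPM in control and 9.92 to 12.1 CPM in IGF2BP3 KD cells, with 2 of 6 tested genes higher, *KRT4* by 1.33 and *KRT6A* by 0.61 on the log2 scale. *KRT5* did not exceed 0.0556 CPM, and *CRNN* and *TGM3* were at 0. The call of *KRT6A* held without control replicate 3 but was lost without any of the other 5 libraries (values from 0.51 to 0.66), and also without a filter on low counts (0.60). Over 6 mesenchymal genes the sum was 21.5 to 24.3 and 29.9 to 34.8 CPM, nearly all from the collagen gene *COL1A1*, which was called higher by 0.50 on the log2 scale, while *VIM* did not exceed 0.73 CPM and *COL1A2* was at 0. The sums over 4 blood and 3 endothelial genes did not exceed 1.64 and 0.563 CPM. Mitochondrial genes took 8.67% to 9.06% of the counts. The part of these genes in the rise of *CDX2* was not tested.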

How the data were processed

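RNA-seq was done on 3 control and 3 IGF2BP3 KD libraries of OE-19 cells. Per the authors' methods, hisat2 placed read pairs of 150 bases on hg38 and featureCounts gave the raw counts per gene that were deposited. Versions, annotation release and strand setting are not given in the sources used here. Of 60612 entries, 132 repeats of 44 identifiers were left out. The quasi-likelihood test of edgeR 4.0.16 (R 4.3.3) was used on these counts after filterByExpr (minimum count 10, minimum total 15) and TMM scaling, with group as the only term. P-values of all 19778 tested genes were adjusted together by the Benjamini-Hochberg method. Fits were tested on simulated data. The lineage factors, gene lists and words were chosen with earlier results of these data known.

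Named are the 8 factors, the called genes of each list (for lists with over 6, the 3 largest falls and rises), the 2 most abundant per list, and the 2 profiles nearest to *CDX2* (pseudocount 0.5 CPM). *VIL1*, *TP63*, *PDX1*, *HNF4G*, *FABP2*, *APOA4*, *ISX*, *MALSU1*, the genes named as carriers of a word and the markers of epithelial and other cells were named after their values were seen. Exon lengths, overlaps and 3′ UTRs come from GENCODE v44 (hg38), which holds 99.97% of the tested genes, and promoters from RefSeq, found for 4 of the 8 factors. Alternatives were DESeq2 1.42.0, RLE scaling, no filter, a minimum of 10 counts in each library, a block for replicate number, and each library left out. Exact tests used scipy 1.17.1 and figures matplotlib 3.10.9, in Python 3.11.15.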

Additional observations from a re-analysis of the deposited data

How the results depend on the processing

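The fold changes of the 7 tested lineage factors kept their direction and their side of the threshold in all 77 refits, 11 for each factor. That of *CDX2* lay between 0.44 and 0.59, with adjusted p-values from 2.3e-05 (DESeq2) to 0.0154 (edgeR without control replicate 3). Some factors that were not called came close to the threshold. Over the edgeR and DESeq2 refits their lowest adjusted p was 0.0506 for *GATA6*, 0.051 for *FOXA2* and 0.058 for *KLF5*. Replicate numbers are shared between the groups, but same-numbered libraries did not deviate together (r from -0.05 to -0.02 over 14289 genes). This check takes all these genes together and cannot say whether the number marks a shared culture or batch. With the number as a replicate block *CDX2* was at 0.50 (adjusted p = 0.00398, edgeR), and of the genes named from the lists *ASCL2* lost its call.

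Over all genes, 1641 to 2415 were lower and 1354 to 2168 higher under the alternatives. The count of higher squamous keratinocyte markers went from 2 to 1 without a filter on low counts, and was 1 to 2 with each library left out. Higher WNT target genes numbered 1 to 2 with each library left out. *HNF4G* turned its direction in fits that left out 1 library, between -0.43 and 0.17, and was called in none of them. The difference in the ratio of *HNF4A* over *HNF4G* lay between -0.17 and 0.62 in such fits. The causes were not tested. Of 440 refits of 40 other genes, 32 lost and 1 gained a call, with *PROX1* (5), *ASCL2* (7) and *KRT6A* (6) losing it most often. The lineage factors other than *CDX1* each had at least 702 counts per library, and whether depth limits their tests was not tested.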
